A study of Mus musculus with 6 samples.

Results

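The keratin genes Krt13, Krt4, Krt6a, Krt6b and Krt16 of stratified epithelium were described in organoids of mouse esophageal epithelium. They were chosen by name, as the suprabasal and stress keratins of this tissue, with earlier results of these data known. They make up 5 of the 32285 genes in the deposited tables and 5 of the 53 keratin genes listed there. Live esophageal cells of C57BL6 mice (DAPI-negative, since DAPI stains dead cells) that carried the basal adhesion receptor integrin-b1 were separated by Cyto-ID, a dye of autophagic vesicles. Cyto-ID Low cells (titled negative in the labels) and Cyto-ID High cells (titled positive) founded separate organoid cultures in Matrigel with EGF, Noggin, R-Spondin and the ROCK inhibitor Y27632, and the organoids were dissociated after 15 days. For 3 cultures in each group, labelled F2, M3 and F6, single cells were sequenced from the 3′ ends of their transcripts, which were counted by unique molecular identifiers (UMIs). Both groups carried no further treatment or allele in the labels, and nothing says how many animals stand behind a replicate label, so the p-values measure the spread between these libraries. The questions asked here were in which order these keratins came up as the basal keratin Krt14 went down from cell to cell, and whether their levels differed between organoids of Cyto-ID Low and Cyto-ID High founders.

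Keratins are the intermediate filament proteins of epithelial cells, and each filament is built from pairs of a type I and a type II chain. Basal cells of stratified epithelia make Krt5 and Krt14. In the esophagus, cells that leave the basal layer switch to the pair Krt4 (type II) and Krt13 (type I), the marker pair of internal stratified epithelia. Krt6a and Krt6b (type II) and Krt16 (type I) are partner keratins known as stress or wound keratins, because keratinocytes at wound edges and in hyperproliferative epithelium induce them; they are also made constitutively in parts of the oral and esophageal lining.

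The genes lie in the mouse keratin clusters for the type I and type II chains (GRCm38, GENCODE vM21 annotation). Krt13 is at chr11:100117327-100121566 and Krt16 at chr11:100246091-100248902, in the type I cluster that also holds Krt14. Krt4 is at chr15:101918535-101924735, Krt6a at chr15:101689910-101694307 and Krt6b at chr15:101676023-101680287, in the type II cluster. All 5 are protein-coding genes on the minus strand, and 9622 bases separate Krt6b from Krt6a. Because Krt6a and Krt6b are near copies, the stretch in which their coding sequences differ most densely is shown first, coding bases 751 to 870 of their GENCODE transcripts, 5′ to 3′, with the 17 bases that differ in capitals. This stretch ends 792 (Krt6a) and 795 (Krt6b) bases before the end of the coding sequence.

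Krt6a: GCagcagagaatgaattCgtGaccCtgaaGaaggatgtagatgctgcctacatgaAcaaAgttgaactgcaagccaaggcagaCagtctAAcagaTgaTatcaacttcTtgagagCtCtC

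Krt6b: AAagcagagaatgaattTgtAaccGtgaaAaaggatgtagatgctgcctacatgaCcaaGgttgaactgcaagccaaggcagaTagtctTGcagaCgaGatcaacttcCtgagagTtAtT

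Across the whole coding sequence the 2 genes differed at 37 of 1662 aligned bases, an identity of 97.8%. Their 3′ untranslated regions, where reads of a 3′ library fall, were 78.9% identical. In the last 500 bases of the transcript, 0 of 410 windows of 91 bases (the length of the sequenced read) in Krt6a and 0 of 410 in Krt6b occurred in a transcript of any other gene, and the same held for Krt13 and Krt4. In Krt16, 17 of 410 windows (4.15%) also occurred in a transcript of Gm11597. Krt16 and the basal keratin Krt14 shared 86.0% of their aligned coding bases. How reads that fit more than 1 gene were counted is not given in the sources used here, so the split of reads between Krt6a and Krt6b is uncertain where a read fell into identical stretches.

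Cells with at least 500 detected genes were kept, 25154 of 26808 barcodes, or between 2667 and 5617 cells per library. Depth differed widely, with median UMIs per cell of 7789 (F2), 6080 (M3) and 2716 (F6) in the Cyto-ID Low libraries and of 10038 (F2), 2357 (M3) and 1940.5 (F6) in the Cyto-ID High libraries. Between 0 and 8 barcodes were shared between any pair of libraries. Keratinocyte genes were present throughout: Krt14 was the highest keratin and 93.5% to 99.0% of the cells of a library had a UMI of it. Defining genes of other cell types were near the floor. Col3a1 (1 of 6 fibroblast genes), Cdh5 and Emcn (endothelium), Ptprc (leukocytes), Dct (melanocytes) and Muc5b (glands) had no UMI in any library, and the summed fibroblast list reached at most 4.95 CPM (UMIs per 1000000 UMIs of a cell), the endothelial list 0.854 CPM and the immune list 22.2 CPM. The columnar list was not at the floor, at 2079 to 4313 CPM in Cyto-ID Low and at 668 to 2171 CPM in Cyto-ID High libraries; 5 of its 6 genes had UMIs, among them the simple-epithelial keratin Krt7 at a mean of 1166 CPM.

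Krt13 was the second most abundant keratin after Krt14 in the mean over the 6 libraries. Krt5 was above it in Cyto-ID High F2 (3419 CPM), and Krt5 (2916 CPM) and Krt6a (2816 CPM) were above it in Cyto-ID High F6. Levels are mean CPM over the cells of a library; a UMI marks 1 transcript end, so levels were not divided by gene length. Krt13 stood at 4026 (F2), 5747 (M3) and 5115 (F6) CPM in Cyto-ID Low and at 2559, 6615 and 2623 CPM in Cyto-ID High libraries. The F2 and F6 libraries of Cyto-ID High were the lowest and the M3 library of the same group the highest, so the groups overlapped.

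Krt4, the filament partner of Krt13, was far less abundant and followed the same pattern of libraries. It stood at 549, 718 and 555 CPM (F2, M3, F6) in Cyto-ID Low and at 289, 1026 and 342 CPM in Cyto-ID High libraries. Here too both the lowest and the highest library were Cyto-ID High. Krt4 was concentrated in few cells: between 86.6% and 97.0% of its UMIs lay in the 10% of cells with the most Krt4 UMIs, against 54.1% to 68.3% for Krt13. For Krt6b, whose mean level was close to that of Krt4, this share was 66.6% to 89.7%, which overlapped Krt4.

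Among the stress keratins, Krt6a followed Krt14, Krt13 and Krt5 in mean level and had the smallest SD relative to its mean of the 5 genes. It stood at 1921, 2310 and 2454 CPM in Cyto-ID Low and at 1988, 2210 and 2816 CPM in Cyto-ID High libraries (F2, M3, F6), with interleaved groups. Krt6b stood at 414, 632 and 648 CPM and at 432, 673 and 886 CPM in the same order. The F2 library was the lowest in each group for both Krt6 genes.

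Krt16 was the one member whose groups did not overlap. It stood at 590 (F2), 1021 (M3) and 1016 (F6) CPM in Cyto-ID Low and at 1600, 3409 and 2092 CPM in Cyto-ID High libraries. Every Cyto-ID High library was above every Cyto-ID Low library, and the M3 library was the highest in both groups. Over all 6 libraries the order of the means was Krt13 (4447 ± 1668, SD, n = 6), Krt6a (2283 ± 328), Krt16 (1621 ± 1021), Krt6b (614 ± 174) and Krt4 (580 ± 269). The neighbours Krt6a and Krt16, and Krt6b and Krt4, differed by less than their spread between libraries.

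**Figure D1:**
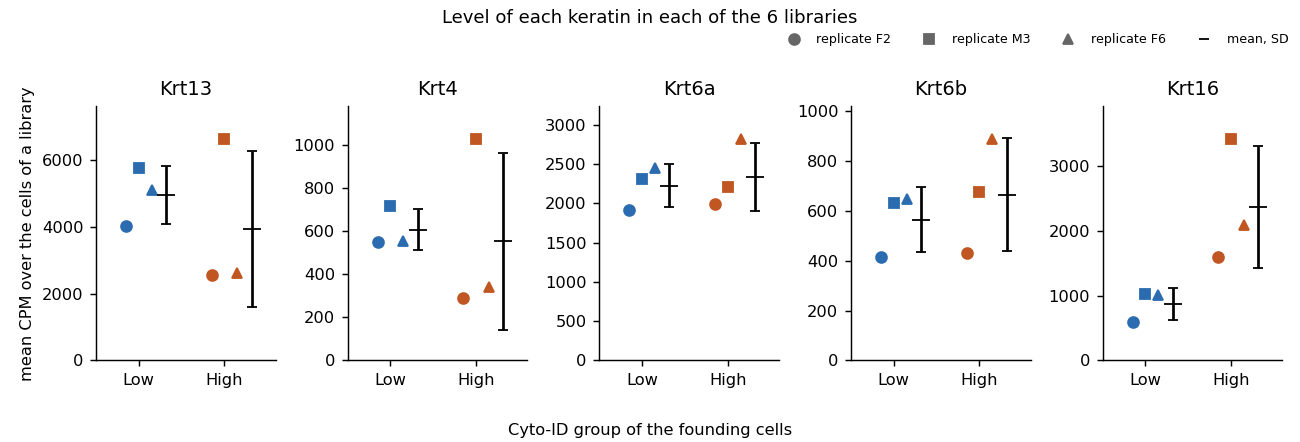
Mean CPM of Krt13, Krt4, Krt6a, Krt6b and Krt16 over the cells of each library (y axis, linear from 0, a scale of its own in each panel), by Cyto-ID group of the founders (x axis); points are single libraries, with the shape giving the replicate label, and the dash and bar are the mean and SD of 3 libraries. The groups overlap in every panel except that of Krt16, where the Cyto-ID High libraries (1600 to 3409) lie above the Cyto-ID Low libraries (590 to 1021).

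In the comparison of the 2 groups, Krt16 averaged 876 ± 247 CPM in Low and 2367 ± 936 CPM in High organoids (SD, n = 3 each), a ratio of 2.70. It was higher in 3 of 3 same-labelled pairs, and the exact permutation test (two-sided) reached its floor for 3 against 3 libraries, p = 0.10. In the limma fit across all genes, on log2(TMM-scaled CPM + 1), the difference was 1.52 ± 0.42 (SE), with an unadjusted p of 0.0056 and a Benjamini-Hochberg adjusted p of 0.40, so Krt16 did not pass the threshold of 0.05. Over its other settings the adjusted p ranged from 0.061, with the replicate label as a block, to 0.998. The other members had smaller differences than their errors: -0.36 ± 0.47 for Krt13, -0.25 ± 0.49 for Krt4, 0.18 ± 0.33 for Krt6a and 0.32 ± 0.38 for Krt6b, with adjusted p between 0.85 and 0.92. Krt6b was also higher in 3 of 3 same-labelled pairs, and with the replicate label as a block its limma adjusted p was 0.47. None of the 5 members was called, in a fit that called 0.163% of the 11645 genes tested, and a non-overlap with all Cyto-ID High libraries on top, as for Krt16, was found for 4.48% of those genes. In a mean over a whole library, more cells with the transcript and more transcript per cell cannot be told apart.

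Krt16 was then set against its filament partners. The level of Krt16 relative to the summed level of its type II partners Krt6a and Krt6b was 0.253 (F2), 0.347 (M3) and 0.327 (F6) in Cyto-ID Low and 0.661, 1.18 and 0.565 in Cyto-ID High libraries. The summed level of the partners was at 2335 to 3102 CPM in Cyto-ID Low and at 2420 to 3702 CPM in Cyto-ID High libraries, so the ratio follows the level of Krt16, and it is given as a description.

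Shares of cells with at least 1 UMI were compared after each cell had been thinned to 1000 UMIs, which left out 115 cells of the Low and 232 of the High group. Krt16 was detected in 24.1%, 35.1% and 32.6% of cells in Cyto-ID Low (F2, M3, F6) and in 45.1%, 56.7% and 55.3% in Cyto-ID High libraries. The groups did not overlap, and the means were 30.6 ± 5.8% and 52.4 ± 6.3% (SD, n = 3 each, exact permutation p = 0.10, higher in 3 of 3 pairs), as for 4.3% of the 11645 genes; without thinning they were 56.7% and 73.2%. Wilson 95% intervals of these single shares were at most 1.88 percentage points to each side and cover counting error only. Krt13 was detected in 59.97 ± 4.0% of the cells in Cyto-ID Low and in 53.0 ± 14.3% in Cyto-ID High libraries, Krt6a in 62.5 ± 3.6% and 65.6 ± 3.5%, Krt6b in 21.1 ± 4.7% and 21.6 ± 5.1%, and Krt4 in 15.9 ± 1.9% and 13.9 ± 7.5%, all with overlapping groups (exact permutation p between 0.50 and 1). The share of Krt6a was also higher in 3 of 3 same-labelled pairs. Unthinned, these means were 80.1% and 70.1% for Krt13, 85.7% and 84.6% for Krt6a, 36.8% and 35.3% for Krt6b, and 29.9% and 24.0% for Krt4. The libraries held no cell type that should lack keratins in which free RNA could be measured, and its part in these shares was not tested.

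To describe the members as Krt14 falls, the cells of each library were ranked by their share of UMIs from Krt14 and cut into 10 equal bins, from bin 1 with the most Krt14 to bin 10 with the least. Krt14 averaged 26227 CPM in bin 1, 9791 in bin 5 and 306 in bin 10. The members did not rise steadily along this ranking. All 5 were higher in bin 1 than in bin 5, in 6 of 6 libraries for 4 members and in 5 of 6 for Krt4 (all but Cyto-ID High M3), and all but Krt16 were higher again in bin 10 than in bin 5 in 6 of 6 libraries.

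Krt13 averaged 5211 ± 900 CPM in bin 1, 2698 ± 1183 in bin 5 and 8997 ± 3638 in bin 10 (SD, n = 6). Bin 10 was above bin 5 in 6 of 6 libraries, by 2.89 to 3.87 times, and above bin 1 in 5 of 6; the exception was Cyto-ID High F6, with 5734 CPM in bin 1 and 5200 CPM in bin 10. Krt4 averaged 628 ± 241, 260 ± 158 and 1374 ± 859 CPM in the same bins. Its bin 10 was 5.29 times bin 5 on average (range 3.51 to 7.46 over 6 libraries), the highest such mean ratio of the members, and it was above bin 1 in 4 of 6 libraries.

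The stress keratins were highest where Krt14 was highest. Krt6a averaged 4542 ± 1010 CPM in bin 1, 1561 ± 327 in bin 5 and 2704 ± 619 in bin 10, and Krt6b 1554 ± 661, 333 ± 153 and 769 ± 356 CPM. Krt16 averaged 3711 ± 1758, 1336 ± 1254 and 843 ± 477 CPM. For each of Krt6a, Krt6b and Krt16 bin 1 was the highest of the 10 in 6 of 6 libraries. Krt6a and Krt6b were higher in bin 10 than in bin 5 in 6 of 6 libraries, by means of 1.75 and 2.38 times, whereas Krt16 was higher there in 2 of 6, with a mean ratio of 0.80.

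Cells thinned to 1000 UMIs gave the same picture in shares. A Krt6a UMI was found in 87.0 ± 6.7% of cells of bin 1 of the Krt14 ranking, 54.3 ± 5.3% of bin 5 and 72.0 ± 6.0% of bin 10 (SD, n = 6), and a Krt16 UMI in 65.6 ± 10.3%, 38.0 ± 15.7% and 27.7 ± 8.5%. Krt13 was found in 69.1 ± 8.5%, 44.9 ± 11.2% and 86.4 ± 13.1% of cells.

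**Figure D2:**
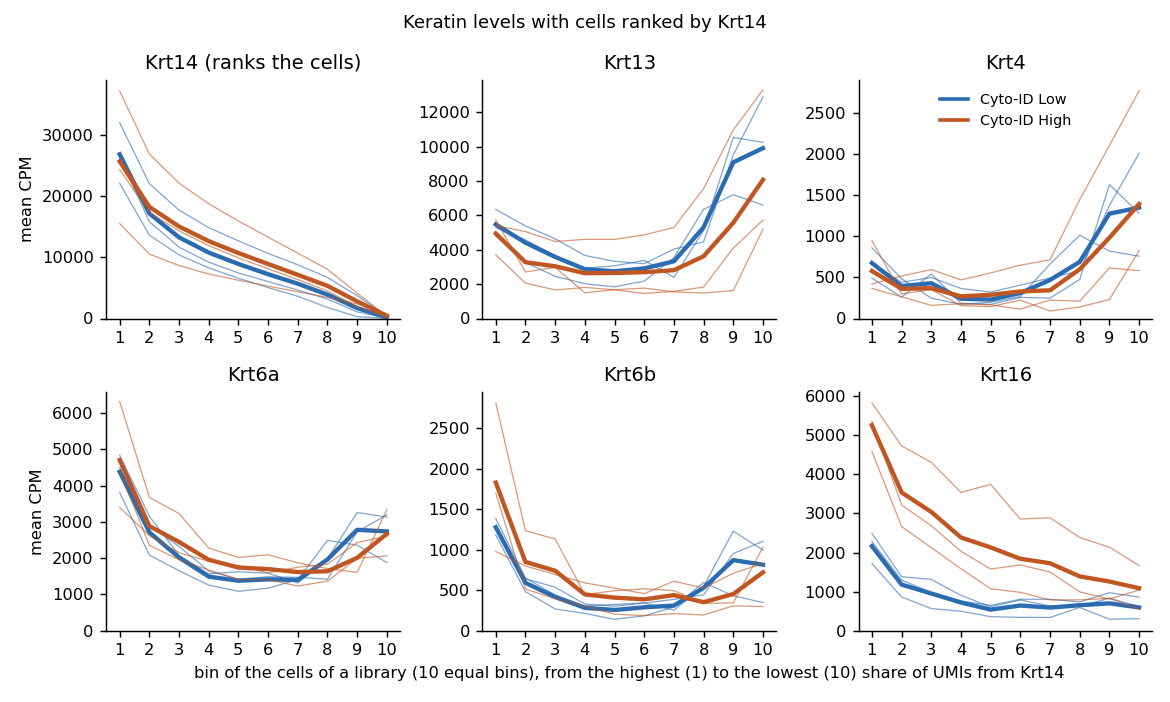
Mean CPM of Krt14 and the 5 members (y axis of each panel, linear from 0) in bins of the cells of each library ranked from the highest (1) to the lowest (10) share of UMIs from Krt14 (x axis); each thin line is 1 library and each thick line the mean of 3, coloured by Cyto-ID group. Krt6a, Krt6b and Krt16 start at their highest level in bin 1 in all 6 libraries, Krt13 and Krt4 dip after bin 1 in most libraries and climb in the last bins, and the Cyto-ID High lines of Krt16 run above the Cyto-ID Low lines over most of the ranking.

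Other genes were followed over the same bins, without a test. The summed early differentiation list averaged 3811 ± 1739 CPM in bin 1, 1908 ± 843 in bin 5 and 5954 ± 1427 in bin 10 of the Krt14 ranking (SD, n = 6). The wound and stress list was at 2269 ± 318, 3079 ± 595 and 2042 ± 439 CPM, lower in bin 1 than in bin 5 where Krt6a, Krt6b and Krt16 were higher. Krt17, another stress keratin and 1 gene of that list, was at 1110 ± 450, 2119 ± 509 and 272 ± 326 CPM. The sum differed less between bins 1 and 5 than Krt17 did, so the other listed genes together had the higher mean in bin 1. The dissociation list was at 2318 ± 450, 3100 ± 547 and 3221 ± 691 CPM. The summed proliferation list was at 80.2 ± 28.5, 272 ± 79.9 and 61.8 ± 81.3 CPM and Krt15, another basal keratin, at 133 ± 102, 464 ± 335 and 252 ± 190 CPM. The cornified and superficial genes (4818 ± 3288, 3391 ± 2547 and 81930 ± 36701 CPM) and the 11 basal genes (7037 ± 1027, 6603 ± 1152 and 1873 ± 757 CPM) had a higher mean in bin 1 than in bin 5. Krt5, 1 of the 11 basal genes, was at 5472 ± 666, 3514 ± 389 and 1095 ± 418 CPM. Its difference between bins 1 and 5 was larger than that of the sum, so the other basal genes together were lower in bin 1. Of markers of other cell types, the columnar and glandular list, with Muc5b at 0 in all libraries, was at 1300 ± 1054, 1364 ± 935 and 7573 ± 2588 CPM, and the immune list, with Ptprc at 0, at 9.95 ± 3.84, 9.63 ± 2.32 and 42.3 ± 14.6 CPM, with the highest of these 3 means in bin 10, as for Krt13 and Krt4. Median UMIs per cell were 5686, 4944 and 6039. The part of any of these in the members' levels was not tested.

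A ranking that leaves Krt14 out was used beside it, by the summed share of 11 other basal genes (Krt5, Krt15, Trp63, Col17a1, Itga6, Itgb1, Itgb4, Dst, Sox2, Lamb3 and Lama3). Along it the members were lowest at the start. Krt13 averaged 2107 CPM in bin 1 and 8832 in bin 10, Krt4 199 and 1832, Krt6a 1687 and 2987, Krt6b 286 and 1371, and Krt16 1257 and 2713 CPM. Bin 10 was above bin 1 in 6 of 6 libraries for Krt13, Krt4 and Krt6b, by mean ratios of 4.30, 9.81 and 6.43, and in 5 of 6 for Krt6a and Krt16, by 1.82 and 1.85. For Krt16 these ratios were 1.02, 1.61 and 0.71 in Cyto-ID Low and 2.28, 3.27 and 2.20 in Cyto-ID High libraries (F2, M3, F6), so its higher level in bin 10 lay mostly in the Cyto-ID High libraries. The lowest bin was 1 or 2 for every member in every library.

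In cells thinned to 1000 UMIs, the share with a UMI was likewise higher in bin 10 than in bin 1 of the basal ranking for 4 members, at 87.3 ± 7.2% against 39.5 ± 11.1% for Krt13, 34.4 ± 12.3% against 7.03 ± 1.89% for Krt4, 70.2 ± 11.2% against 55.4 ± 6.5% for Krt6a and 37.2 ± 14.6% against 10.7 ± 5.1% for Krt6b (SD, n = 6). The share of Krt16 was 34.2 ± 17.7% in bin 10 and 39.9 ± 12.7% in bin 1, although its mean level was higher in bin 10. No order was read from this share, and the positions of Krt16 given below are those of its level. By group the share of Krt16 was 28.8% and 20.3% in Cyto-ID Low and 51.1% and 48.0% in Cyto-ID High libraries (bins 1 and 10).

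**Figure D3:**
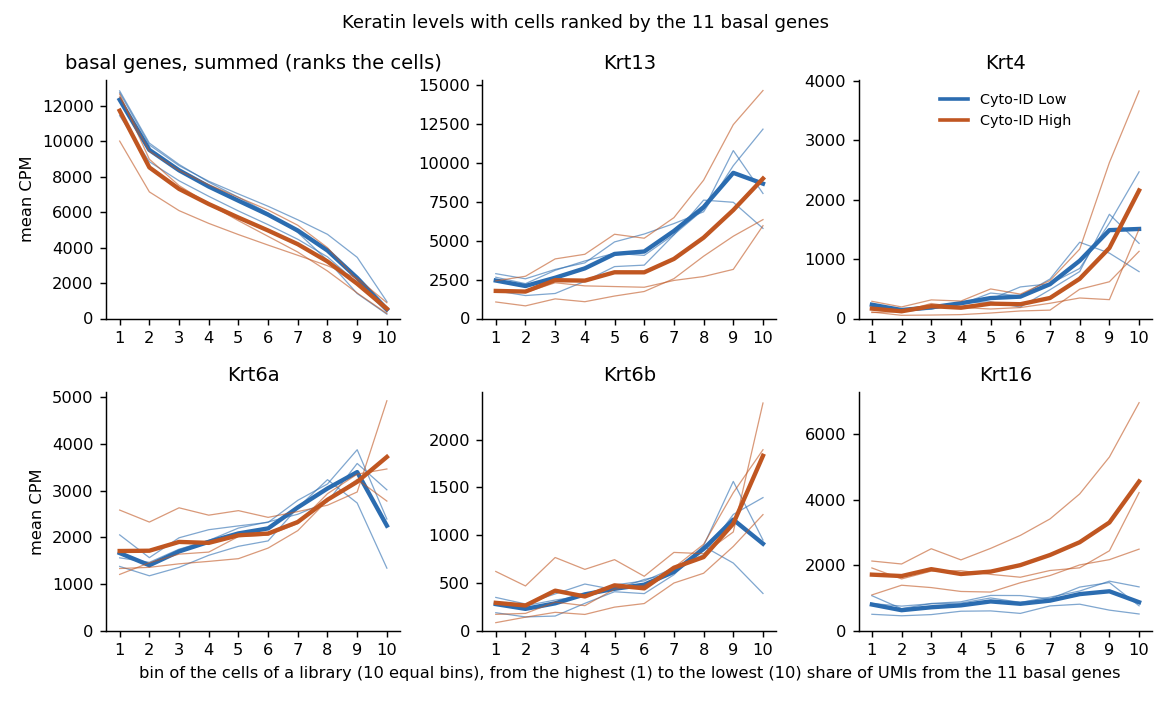
Mean CPM of the 11 summed basal genes and of the 5 members (y axis of each panel, linear from 0) in bins of the cells of each library ranked from the highest (1) to the lowest (10) share of UMIs from the 11 basal genes without Krt14 (x axis); each thin line is 1 library and each thick line the mean of 3, coloured by Cyto-ID group. All members are lowest in bin 1 or 2, and Krt16 in bin 10 lies between 513 and 1339 CPM in Cyto-ID Low and between 2491 and 6958 CPM in Cyto-ID High libraries.

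The order of the rise depended on the ranking and on the measure. The half-rise, the percentile of cells at which a member passes the midpoint between its level in bin 1 and its later maximum, existed on the Krt14 ranking for 10 of 30 pairs of member and library. It was at 79.3 ± 4.5 for Krt4 and 81.6 ± 5.7 for Krt13 (SD, n = 5 libraries; not defined in Cyto-ID High F6). Krt4 came before Krt13 in 5 of 5 libraries, with p = 0.0625 in the exact sign-flip test, the smallest that 5 libraries allow. With cells thinned to 1000 UMIs each came first in 2 of 4 libraries (p = 0.75, exact sign-flip test), so this order was not seen at matched depth. Krt6a, Krt6b and Krt16 had none, since bin 1 was the maximum. Counted instead from the lowest bin, a measure chosen after seeing the data, the half-rises were 79.9 ± 7.0 for Krt13, 78.2 ± 8.4 for Krt4, 79.4 ± 6.9 for Krt6a, 79.4 ± 7.2 for Krt6b (n = 6) and 77.4 ± 18.2 for Krt16 (n = 4 libraries). The smallest adjusted p over pairs of members was 0.69 (exact sign-flip test), so no order of the second rise could be read on the Krt14 ranking.

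On the ranking by the 11 basal genes all 30 half-rises existed. They lay at 70.0 ± 9.9 for Krt6a, 73.6 ± 9.4 for Krt16, 74.4 ± 8.4 for Krt13, 76.2 ± 8.3 for Krt6b and 80.1 ± 7.7 for Krt4 (SD, n = 6). By group (Low, then High) the means were 66.0 and 74.0, 68.9 and 78.4, 70.7 and 78.0, 71.5 and 80.9, and 75.1 and 85.1 in the same order. Each member thus had the later mean in Cyto-ID High. The groups overlapped for all but Krt6b (exact permutation p = 0.10, the smallest possible, and 0.2 to 0.6 for the others). Krt4 came after each of the other members in 6 of 6 libraries, with p = 0.031 for each (exact sign-flip test, the smallest possible) and 0.078 after adjustment over the 10 pairs. No other pair had an adjusted p under 0.125. On this ranking Krt4 thus had the latest half-rise in each library, at an adjusted p above the threshold. The test takes the 6 libraries as independent, and this half-rise was not run with thinned cells, so the order was not checked at matched depth.

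The level-weighted percentile, the mean rank of the cells weighted by a member's level, uses the whole curve and was defined in every library. It gives where along a ranking the level lies. Krt6a, Krt6b and Krt16 peaked in bin 1 of the Krt14 ranking, so there it does not give an order of the rise. On the Krt14 ranking the percentile was 36.9 ± 3.8 for Krt16, 43.2 ± 7.9 for Krt6b, 45.3 ± 2.6 for Krt6a, 56.3 ± 5.0 for Krt13 and 59.5 ± 8.0 for Krt4 (SD, n = 6). Of the 10 pairs of members, 8 had the same order in 6 of 6 libraries, each with p = 0.031 in the exact sign-flip test and 0.039 after adjustment. This test takes the 6 libraries as independent; with same-labelled libraries taken as 1 value, 3 values remain, for which its smallest p is 0.25. Krt6a and Krt6b were not separated (3 of 6 libraries each way), nor were Krt13 and Krt4 (4 of 6). With cells of at least 1000 genes no pair passed (smallest adjusted p = 0.052, exact sign-flip test), and 6 pairs had 1 order in 6 of 6 libraries. With thinned cells 7 pairs passed, and the pair of Krt6b and Krt16 did not (adjusted p = 0.078, exact sign-flip test). For this measure on the basal ranking, a combination chosen after seeing the data, the values were 56.1 ± 3.3 for Krt16, 57.0 ± 1.9 for Krt6a, 64.4 ± 3.1 for Krt13, 65.9 ± 4.4 for Krt6b and 72.9 ± 3.9 for Krt4. Again 8 of 10 pairs kept 1 order in 6 of 6 libraries (adjusted p = 0.039, exact sign-flip test), and the neighbours Krt16 and Krt6a, and Krt13 and Krt6b, were not separated. With cells of at least 1000 genes 7 pairs passed, and the pair of Krt13 and Krt16 did not (adjusted p = 0.078, exact sign-flip test). By group (Low, then High), Krt16 was at 53.8 ± 1.9 and 58.4 ± 2.7 and Krt6a at 56.3 ± 1.1 and 57.6 ± 2.7 (SD, n = 3 each), so that on the basal ranking Krt16 had the lowest mean in Low and Krt6a in High libraries. Krt4 had the highest mean over the 6 libraries on both rankings, and Krt6b stood beside Krt6a on the Krt14 ranking and beside Krt13 on the other.

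**Figure D4:**
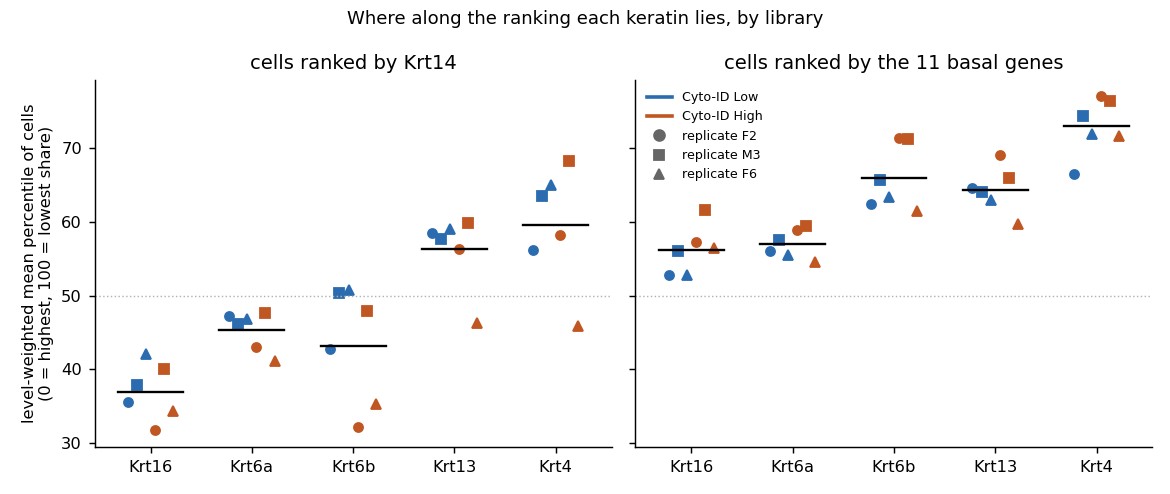
Level-weighted mean percentile of each member (y axis; 0 is the cell with the highest share, 100 the lowest) on the Krt14 ranking and on the ranking by the 11 basal genes; points are single libraries coloured by Cyto-ID group, with the shape giving the replicate label, black bars are the mean of 6 libraries, and the dotted line is the middle cell of the ranking. Over the 6 libraries Krt4 has the highest mean on both rankings (59.5 with Krt14, 72.9 with the basal genes); Krt16 has the lowest with Krt14 (36.9), and with the basal genes it lies beside Krt6a (56.1 and 57.0).

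The change between 2 sets of cells, cut from 3 equal parts of each library's ranking, the part with the least Krt14 (Krt14-low set) and the part with the most (Krt14-high set), was tested within libraries with limma, on log2(TMM-scaled CPM + 1). Krt13 was at 4002 ± 1087 CPM in the Krt14-high and at 6552 ± 2900 CPM in the Krt14-low set (SD, n = 6), and Krt4 at 452 ± 104 and 992 ± 591 CPM; both were higher in the low set in 5 of 6 libraries, all but Cyto-ID High F6. Krt13 rose by 0.74 ± 0.21 (SE, adjusted p = 0.024) and Krt4 rose by 1.08 ± 0.25 (adjusted p = 0.012). Krt16 was at 2585 ± 1476 CPM in the high and 969 ± 639 CPM in the low set, lower in 6 of 6 libraries, and it fell by 1.28 ± 0.17 (adjusted p = 8.4e-04). Krt6a (-0.31 ± 0.15, adjusted p = 0.15) and Krt6b (-0.46 ± 0.25, adjusted p = 0.19) did not pass the threshold. In this fit 14.6% of 12119 genes were called higher and 12.1% lower, so calls are common here. Without TMM scaling the median gene shifted by -0.10, the calls split into 1202 higher and 1839 lower in place of 1766 and 1470, and Krt6a passed (-0.44 ± 0.13, adjusted p = 0.031), as it did without Cyto-ID Low F2 (-0.47 ± 0.13, adjusted p = 0.035).

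The call for Krt13 was not stable to leaving out libraries. It was lost when any library other than Cyto-ID High F6 was left out, with limma adjusted p of 0.071, 0.052 and 0.070 without Cyto-ID Low F2, M3 and F6 and of 0.055 and 0.089 without Cyto-ID High F2 and M3. Without Cyto-ID High F6 the change was 0.97 ± 0.13 (adjusted p = 4.8e-04). Krt4 and Krt16 were called in each of these 6 fits. The calls of Krt13 and Krt4 were lost with cells of at least 1000 genes (adjusted p of 0.15 and 0.099), without a filter on low genes (0.12 and 0.071) and with the same Krt14 limits in every library (0.20 and 0.17). With cells ranked by Krt5 in place of Krt14, Krt13 (0.37, adjusted p = 0.19) and Krt16 (-0.17, adjusted p = 0.56) were not called.

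Between the sets cut in the same way on the basal ranking all 5 members rose, each in 6 of 6 libraries. The limma changes were 2.20 ± 0.16 for Krt13, 3.20 ± 0.14 for Krt4, 1.33 ± 0.11 for Krt6a, 2.403 ± 0.181 for Krt6b and 1.19 ± 0.11 for Krt16 (SE, adjusted p at most 7.8e-06). Krt16 thus changed sign between the rankings: lower where Krt14 was low, higher where the other basal genes were low. In the basal fit 25% of 12228 genes were called higher and 20.2% lower. Without TMM scaling the median gene shifted by -0.41 and the calls split into 1299 higher and 6589 lower in place of 3059 and 2474; relative to zero the members were then higher by 1.73, 2.73, 0.86, 1.93 and 0.71 in the same order, with Krt16 at an adjusted p of 2.4e-04.

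Gene lists of keratinocyte states were set beside the members, with limma changes on the basal and the Krt14 ranking. Of all genes in these fits, 25% were called higher and 20.2% lower on the basal ranking, and 14.6% and 12.1% on the Krt14 ranking. Of 14 early differentiation genes, 14 rose between basal sets, with a median of 1.13 against -0.0090 for all genes; among them were Hopx (4.30 ± 0.18, limma adjusted p = 2.9e-08), a homeodomain cofactor, Mal (4.55 ± 0.23), a membrane protein of apical sorting, Krtdap (2.05 ± 0.15) and Dmkn (1.59 ± 0.12), secreted proteins of differentiating keratinocytes. Between Krt14 sets 3 of these 14 rose, Hopx (3.59 ± 0.20), Mal (3.44 ± 0.29) and the transcription factor Elf3 (2.10 ± 0.24), and 6 fell, Krtdap (-2.04 ± 0.36, adjusted p = 0.0031) with the smallest p, so Krtdap changed sign as Krt16 did. Of 15 tested cornified and superficial genes, 15 rose on the basal and 11 on the Krt14 ranking. Sprr1b, a cornified envelope precursor, was the 1 that fell on the latter (-1.79 ± 0.29, and 2.08 ± 0.16 on the basal ranking). Psca (4.98 ± 0.25 and 4.09 ± 0.33), a surface protein, and Sprr2f (5.69 ± 0.34 and 4.99 ± 0.51), another envelope precursor, rose on both.

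The list of wound and stress genes, which holds other genes linked to the same states as Krt6a, Krt6b and Krt16, was mixed. Of 19 tested, 10 rose and 6 fell between basal sets, and 11 rose and 2 fell between Krt14 sets. Il1a, an epithelial alarm cytokine (3.23 ± 0.17 and 2.398 ± 0.243), and the EGF receptor ligands Areg (1.73 ± 0.13 and 1.00 ± 0.12) and Hbegf (1.69 ± 0.14 and 1.38 ± 0.17) rose on both, and S100a9, an antimicrobial calcium-binding protein, fell between Krt14 sets (-1.65 ± 0.21, adjusted p = 6.6e-04) and rose between basal sets (1.42 ± 0.28). The immediate-early genes of the dissociation list rose as well, 9 of 10 on the basal and 7 of 10 on the Krt14 ranking, with Junb at 1.12 ± 0.11 and 0.82 ± 0.12. Of 5 columnar genes tested, 4 rose on either ranking, and 4 (Krt14) and 3 (basal) of 8 proliferation genes rose, with 2 lower on the basal ranking. Of all genes, 25% were called higher and 20.2% lower on the basal ranking, and 14.6% and 12.1% on the Krt14 ranking. Several list counts are near these shares and are not read as results about the lists. The calls of the lists are on the TMM scale, relative to the other genes, and 3 of the summed lists were lower in plain CPM at the end of the basal ranking. From its bin 1 to its bin 10 the wound and stress list went from 3524 ± 591 to 1809 ± 298 CPM, the dissociation list from 3554 ± 384 to 3070 ± 521 CPM and the proliferation list from 158 ± 57.3 to 46.6 ± 50.9 CPM (SD, n = 6). Krt17, 1 gene of the wound and stress list, went from 2502 ± 580 to 258 ± 166 CPM. This fall was larger than that of the sum, so the other genes of that list together had the higher mean in bin 10. The part of these lists in the members' changes was not tested.

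The excess of Krt16 in Cyto-ID High organoids was then followed along both rankings. In bin 1 of the Krt14 ranking it averaged 2165 ± 399 CPM in Low and 5258 ± 627 CPM in High libraries (SD, n = 3 each), and in bin 10 596 ± 277 and 1089 ± 557 CPM. The ratio of means lay between 1.79 and 3.94 over the 10 bins, and the groups did not overlap in 7 of them, bins 1 to 6 and 8. On the basal ranking the ratio lay between 2.02 and 5.23 and the groups did not overlap in 10 of 10 bins. In bin 10 of these, Krt16 was at 513, 1339 and 762 CPM in Cyto-ID Low and at 2491, 6958 and 4217 CPM in Cyto-ID High libraries (F2, M3, F6). For the other members the ratio of High to Low means in this bin was 1.04 (Krt13), 1.43 (Krt4), 1.65 (Krt6a) and 2.01 (Krt6b), with overlapping groups. Counted over pairs of gene and bin, 3.99% on the Krt14 ranking and 4.55% on the basal ranking had every Cyto-ID High library above every Cyto-ID Low library. In bin 10 of the basal ranking 11.2% of genes did, against 3.23% to 4.41% in its other bins. The bins of a ranking hold cells of the same 6 libraries and are not separate tests. How many genes kept apart in as many bins as Krt16 was not counted. Of the other members, only Krt6a had such a bin, bin 4 of the Krt14 ranking.

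**Figure D5:**
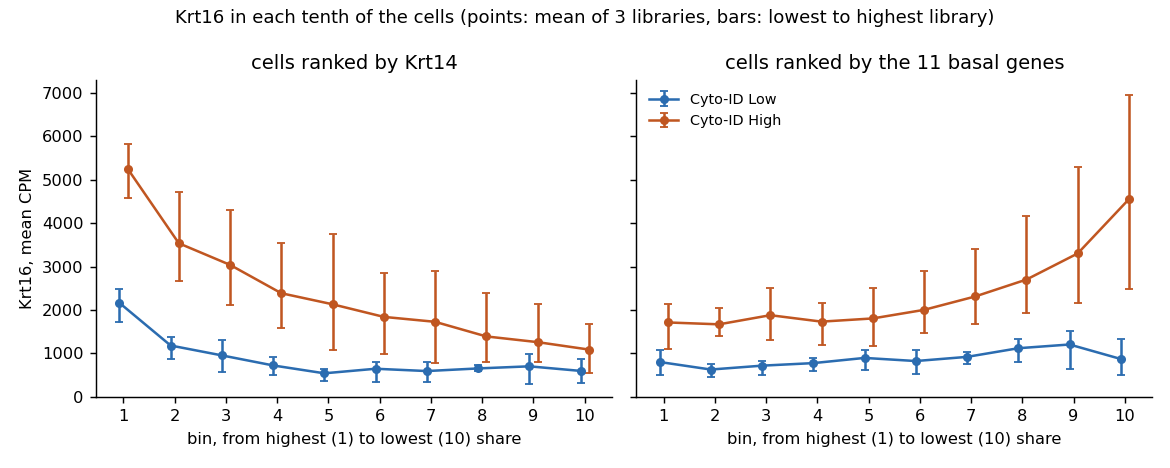
Mean CPM of Krt16 (y axis, linear from 0) in bins of cells ranked from the highest (1) to the lowest (10) share of UMIs from Krt14 (left) or from the 11 basal genes (right); points are the mean of 3 libraries of a Cyto-ID group and bars run from the lowest to the highest library. The Cyto-ID High points lie above the Cyto-ID Low points in every bin, 1.79 to 3.94 times on the left and 2.02 to 5.23 times on the right.

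Within the sets, limma gave Krt16 a difference between Cyto-ID High and Low of 1.65 ± 0.37 (SE, adjusted p = 0.11) in the Krt14-high set, where it was at 3801 ± 946 against 1369 ± 334 CPM, and of 0.89 ± 0.50 (adjusted p = 0.91) in the Krt14-low set, at 1307 ± 793 against 631 ± 219 CPM. In the sets of the basal ranking it was 1.42 ± 0.36 (adjusted p = 0.28) where basal genes were high and 1.67 ± 0.50 (adjusted p = 0.59) where they were low. The Krt16 libraries of the 2 groups did not overlap in the Krt14-high, basal-high and basal-low sets, as for 4.15%, 4.18% and 4.22% of genes, and overlapped in the Krt14-low set. In the Krt14-low set Krt16 was higher in Cyto-ID High in 3 of 3 same-labelled pairs. Krt6b was the only other member without overlap in one of these 4 sets, the Krt14-high set, at 608, 772 and 771 CPM in Cyto-ID Low and at 795, 805 and 1620 CPM in Cyto-ID High libraries (0.68 ± 0.36, adjusted p = 0.54).

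None of these differences passed the threshold, and no other member did in any set; the fits called 0.269%, 0.0432%, 0.153% and 0.151% of their genes. With the replicate label as a block, Krt16 passed in the Krt14-high set (adjusted p = 0.035) and in the basal-high set (adjusted p = 0.026), where 0.417% and 0.485% of genes were called higher, and did not in the Krt14-low (adjusted p = 0.43) and basal-low sets (adjusted p = 0.13). The blocked fits called 64 genes over all cells in place of 19, and 62, 27, 67 and 41 in the 4 sets in place of 31, 5, 18 and 17.

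Whether a member's change between Krt14 sets itself differed between the groups was tested with limma on the 6 within-library changes. All 5 estimates were negative in Cyto-ID High minus Low, from -0.54 ± 0.50 for Krt4 to -1.23 ± 0.34 for Krt6b, with -0.76 ± 0.27 for Krt16. None passed, with adjusted p of 0.97 for Krt6b and 0.998 for each of the others, and the fit called 0% of 12119 genes (543 had an unadjusted p under 0.05). Krt6b had a ratio of the low to the high set of 0.730, 1.02 and 1.10 in Cyto-ID Low and of 0.338, 0.869 and 0.347 in Cyto-ID High libraries (F2, M3, F6), with the M3 library of Cyto-ID High inside the Cyto-ID Low range. All 5 estimates turned positive when cells were ranked by Krt5 in place of Krt14 (0.42 to 0.88), and on the basal ranking those of Krt4 (0.16), Krt6b (0.24) and Krt16 (0.26) did.

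Other genes known in the same layers were compared over all cells beside Krt16. Of the 14 early differentiation genes, Krtdap was called higher in Cyto-ID High organoids (4.27 ± 0.43, limma adjusted p = 0.0080); Sbsn, another secreted protein of differentiating keratinocytes, was at 1.67 ± 0.27 (adjusted p = 0.072). Of 15 cornified and superficial genes tested, Sprr1b was called higher (3.24 ± 0.42, adjusted p = 0.029), and of 19 wound and stress genes none was called. The differences were positive for 10 of the 14 (median 0.37), for 7 of the 15 (median -0.076), for 8 of the 19 (median -0.17) and for 0 of 4 columnar genes (median -1.11, none called). The summed cornified list was at 11487 to 29168 CPM in Cyto-ID Low and at 5227 to 17532 CPM in Cyto-ID High libraries. In the Krt14-high set both Krtdap (4.19 ± 0.57, adjusted p = 0.025) and Sbsn (2.12 ± 0.21, adjusted p = 0.0060) were called. The 8 proliferation genes all had a positive difference, with a median of 0.87 against 0.0049 for all genes, and none was called. The summed early differentiation list was at 1929 to 2991 CPM in Cyto-ID Low and at 2999 to 3582 CPM in Cyto-ID High libraries, and the summed proliferation list at 105 to 200.8 and 243 to 317 CPM. Like Krt16, both sums were higher in every Cyto-ID High than in every Cyto-ID Low library, the early differentiation sum by a narrow margin. Of single genes 4.48% were placed this way, and for sums of genes the share was not counted. The summed immune list, at low levels, was lower in every Cyto-ID High library (8.44 to 14.6 against 15.3 to 22.2 CPM). Within groups M3 had the most Krt16. Cyto-ID Low M3 had the lowest early differentiation and the highest proliferation sum of its group, and Cyto-ID High M3 the reverse. The part of these lists in the difference of Krt16 was not tested.

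The genes whose profiles over the 60 points (6 libraries by 10 Krt14 bins, library means removed, 7031 genes compared) were most like each member are named here by member, as the 5 with the highest Pearson correlation. For Krt13 they were Evpl (envoplakin, r = 0.96), Clic3 (0.96), Serpinb1a (0.95), Ppl (periplakin, 0.95) and Calml3 (0.94), where envoplakin and periplakin are scaffold proteins of the cornified envelope. For Krt4 they were its partner Krt13 (0.93), Ppl (0.89), Sprr2a3 (0.88), Evpl (0.88) and Sprr3 (0.87). For Krt6a they were Rab25 (0.96), Krt6b (0.96), Gsta4 (0.95), Ly6d (0.95) and Pmvk (0.93), and for Krt6b Krt6a, Csta1 (0.94), Gsta4 (0.93), Rab25 (0.93) and Gjb2 (0.92). For Krt16 they were Dmkn (0.93), Lypd3 (0.92), Fgfbp1 (0.92), Sult2b1 (0.92) and Dynll1 (0.92). Points of 1 library share their cells' depth and ranking, so these values are a description.

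Across single cells the members were correlated with each other in every library, on log2 of UMIs per 10000 plus 1. The highest values were those of Krt13 with Krt6a, at 0.55 to 0.68 over the 6 libraries, Krt13 with Krt6b, at 0.56 to 0.68, and Krt6a with Krt6b, at 0.57 to 0.62. Krt13 with its partner Krt4 lay at 0.49 to 0.62 and Krt6a with Krt16 at 0.41 to 0.48. The lowest were Krt4 with Krt16, at 0.14 to 0.25, and Krt13 with Krt16, at 0.24 to 0.35. Against Krt14, Krt13 lay at -0.37 to -0.04, Krt4 at -0.30 to -0.08, Krt6a at -0.05 to 0.11 and Krt16 at 0.15 to 0.32, so that of the members Krt16 alone was positive in all 6 libraries. Cells of a library share its depth and normalization, and these are descriptions of cells within libraries.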

How the data were processed

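Single-cell 3′ RNA libraries of 6 organoid cultures, 3 for each Cyto-ID group of founding cells, were analysed. The authors deposited, per cell, the natural log of 1 plus UMIs scaled to 10000 per cell; this unit was found from the values, and every value gave whole UMIs within a relative tolerance of 1e-06. Cell Ranger 6.0.0, Seurat 4 and GRCm38 (mm10) are named in the submitters' processing notes, without settings. Tests were run on mean CPM; a count model on the recovered UMIs was not run.

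Cells with at least 500 genes were kept, at 1940.5 to 10038 median UMIs per library, and no doublets were removed. Mean CPM per library, or per set of its ranked cells (the top and bottom of 3 equal parts), was scaled by TMM (30% of ratios and 5% of levels trimmed). Genes at 1 CPM or more in 3 or more libraries were fitted with limma 3.58.1 (R 4.3.3) on log2(CPM + 1), with Benjamini-Hochberg adjustment over all genes and a threshold of 0.05. Between sets of 1 library, the fit was on the within-library change. Exact permutation and sign-flip tests were two-sided (Python 3.11.15, numpy 2.4.6, scipy 1.17.1); figures used matplotlib 3.10.9 and alignments Biopython 1.88. The limma step was run on simulated counts with a preset spread between libraries, which may differ from the spread in these data. Recovery of changed genes was not required there for the difference of changes.

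Members and gene lists were chosen with earlier results of these data known. From each gene list up to 4 genes with the smallest p in the comparison were named, also with their value on the other ranking; Sprr1b was named on the Krt14 ranking after its value was seen. Like genes are the 5 with the highest correlation at 10 CPM or more. Libraries with the same replicate label deviated together from their group means, with correlations of 0.76 (F2), 0.57 (M3) and 0.14 (F6) over genes at 5 CPM or more, so the labels were taken as pairs; the pair of Cyto-ID Low F2 and Cyto-ID High F6, with different labels, was at 0.17, above F6. The pairing comes from the labels' titles and these correlations.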

Additional observations from a re-analysis of the deposited data

How the results depend on the processing

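The differences of Krt16 between Cyto-ID High and Low kept their direction under every alternative run, over all cells and in all 4 sets, as did the changes of all 5 members between basal sets. The block for the replicate label changed the call of Krt16 in the Krt14-high and basal-high sets and no other call of a member; with it 64 genes were called over all cells in place of 19, 62 in the Krt14-high, 27 in the Krt14-low, 67 in the basal-high and 41 in the basal-low set, and 4 for the difference of changes. The cause of the changes listed here was not tested.

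Counts of called genes moved with the settings. With a pseudocount of 0.1 CPM they were 5 over all cells, 8 in the Krt14-high, 6 in the basal-high and 11 in the basal-low set. Without a filter on low genes, where more genes are tested, they were 0 over all cells (1355 genes at an unadjusted p under 0.05 in limma), 2 in the Krt14-high, 1 in the basal-high, 0 in the Krt14-low (597) and 0 in the basal-low set (883), and 2096 between Krt14 sets. With the same Krt14 limits in all libraries they were 1 in the Krt14-high and 0 in the Krt14-low set (213 at an unadjusted p under 0.05) and 2154 between sets. On the basal ranking they were 18, 17 and 5533 where the Krt14 ranking gave 31, 5 and 3236. In the Krt14-low set, cells with at least 1000 genes gave 1, summed UMIs 3 and the Krt5 ranking 12 genes, and in the basal-low set plain CPM gave 29. Without TMM scaling the median gene shifted by -0.10 over all cells, -0.15 in the Krt14-high and -0.11 in the basal-high set, and by 0.21 in the difference of changes.

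Leaving out 1 library at a time gave 6 to 17 called genes over all cells, 1 (without Cyto-ID High F2) to 134 (without Cyto-ID High M3) in the Krt14-high set, 7 to 31 (without Cyto-ID High M3) in the basal-high set, 0 (without Cyto-ID High F6; 101 genes at an unadjusted p under 0.05) to 5 in the Krt14-low set, 0 (without Cyto-ID High F6; 247) to 30 (without Cyto-ID Low M3) in the basal-low set, 1797 (without Cyto-ID High F2) to 3640 between Krt14 sets and 0 to 2 for the difference of changes. Members over all cells ranged from -0.87 to 0.19 for Krt4 and from -0.023 to 0.38 for Krt6a, and in the Krt14-high set from -0.42 to 0.24 for Krt13 and from -0.31 to 0.31 for Krt4. The change between Krt14 sets ranged from 0.58 to 0.97 for Krt13 and from -0.47 to -0.20 for Krt6a, and the difference of changes of Krt4 from -1.18 to 0.10. The difference in shares of cells ranged from -6.42 to 0.15 percentage points for Krt4 and from -2.01 to 3.41 for Krt6b.

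For single members between Cyto-ID groups, cells with at least 1000 genes gave Krt4 0.035 over all cells and 0.17 in the Krt14-high set, where leaving out the 5% of cells with the most UMIs gave 0.036 and the same limits 0.14. The Krt5 ranking gave -0.067 (Krt6a) and -0.10 (Krt6b) in the high set and 0.047 (Krt4), 0.42 (Krt6a) and 0.69 (Krt6b) in the low set, where the basal ranking gave 0.15 (Krt6a) and 0.37 (Krt6b). Shares of cells turned to 1.09 percentage points for Krt4 with cells of at least 1000 genes, and without thinning to -1.06 for Krt6a and -1.49 for Krt6b. For the change between sets, Krt6a was -0.44 with plain CPM; Krt13 and Krt4 were 0.71 and 1.048 without the filter, 0.54 and 0.83 with at least 1000 genes, and 0.67 and 0.95 with the same limits. The Krt5 ranking gave 0.37 (Krt13), 0.38 (Krt6b) and -0.17 (Krt16), and the basal ranking 1.33 (Krt6a), 2.403 (Krt6b) and 1.19 (Krt16). The difference of changes was 0.42, 0.88, 0.48, 0.79 and 0.69 (Krt13, Krt4, Krt6a, Krt6b, Krt16) on the Krt5 ranking, and 0.16 (Krt4), 0.24 (Krt6b) and 0.26 (Krt16) on the basal one.

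The half-rise on the Krt14 ranking moved to 74.4 for Krt13 on the basal ranking, and for Krt4 to 84.2 with thinned cells and 85.1 on the Krt5 ranking; level-weighted percentiles were 56.3 and 59.5. It existed for 16 pairs of member and library on the Krt5 and 30 on the basal ranking in place of 10. With 20 bins, 1 pair of members kept 1 order from the trough. The alternatives for the basal sets, the trough and the basal level-weighted percentile were chosen after seeing the data. So were the alternative settings of the level-weighted percentile on the Krt14 ranking, such as thinned cells and cells of at least 1000 genes. Depth, at 1940.5 to 10038 median UMIs per cell, was matched between libraries only for the thinned shares and positions, and 3 libraries a group limit exact permutation tests between groups to p of 0.10.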
